A study of Mus musculus with 20 samples.

Results

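Tissue inhibitors of metalloproteinases (TIMPs) are small secreted proteins that block the zinc enzymes which cut collagen, aggrecan and other components of the extracellular matrix. A TIMP fits into the active site of a matrix metalloproteinase (MMP) and silences it, and single family members also inhibit ADAM and ADAMTS enzymes, which shed membrane proteins and cleave aggrecan. RECK is a membrane-anchored protein of unrelated structure that restrains several of the same enzymes at the cell surface. In cartilage and bone, the balance between these inhibitors and their enzymes is known to set the pace of matrix turnover. The genes described here are the 4 TIMP genes of the mouse, *Timp1*, *Timp2*, *Timp3* and *Timp4*, together with *Reck*. They were chosen by name as a gene family, and all 5 were among the 15984 genes tested, out of 54532 in the table.

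RNA-seq was carried out on condylar heads of the temporomandibular joint (TMJ), the jaw joint, dissected from mice with part of the subchondral bone. All animals were homozygous for a floxed *Loxl2* allele (Loxl2 fl/fl) and carried Acan-CreERT2, a tamoxifen-inducible Cre knocked in at the aggrecan gene, which limits recombination to aggrecan-expressing cells. *Loxl2* encodes a member of the lysyl oxidase family, whose enzymes crosslink matrix fibres. Animals were 6 months old at the start and were harvested after 4 months. The 12 knockout animals (6 male, 6 female) received tamoxifen at 75 mg/kg by intraperitoneal injection daily for 5 days and then monthly, and the 8 control animals (4 male, 4 female) received vehicle. Controls therefore carried both alleles without the drug, and tamoxifen and deletion cannot be told apart. The strain was not given, and the sex of each library was not given. Summed levels of 4 Y-linked genes were over 100 CPM in 3 control libraries and under 5 CPM in 5, which is not the stated split of 4 and 4. In knockout 6 libraries were over 100 CPM and 6 under 5 CPM. These levels were not used to assign sex.

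Library totals ran from 14177222 to 23795467 counts in control and from 11153820 to 27045668 counts in knockout. The targeted gene *Loxl2* showed no decrease in the libraries labelled knockout, where it averaged 101 CPM (reads scaled by library size) ± 26.9 (SD, n = 12) against 64.5 CPM ± 30.9 (SD, n = 8) in control. The difference was 0.64 on the log2 scale (edgeR adjusted p = 0.101, SE 0.28). The counts do not separate the deleted exons, so this check does not show whether the allele was recombined. Cartilage genes were present in the tissue, with 11 chondrocyte markers summing to between 101 and 3204 CPM in control and between 1576 and 5034 CPM in knockout, while *Matn1* was at 0 in every control library. The list differed by 0.49 on the log2 scale and did not pass (exact permutation adjusted p = 0.476). Of 8 markers tested 1 was called higher, where 12.0% of all genes tested were called higher. Medians went both ways, with *Acan* at 104 CPM in control and 52.2 CPM in knockout, and *Col2a1* at 658 and 1242 CPM. Control replicate 8 stood apart, since its chondrocyte sum was 101 CPM against at least 1511 CPM in every other control and its skeletal muscle sum of 181536 CPM was the highest of its group. The value of each member without it is given below.

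Of the 5 genes, *Timp1* and *Timp2* rose in the libraries labelled knockout, by 2.86-fold and 1.80-fold. *Timp3* did not pass the test, and its mean was 155 CPM against 144 CPM in control. *Timp4* was lower in mean level and *Reck* higher, and neither passed after correction over all genes. The count was therefore 2 of 5 called, both higher, where 23.0% of all genes tested were called in either direction and 12.0% were called higher. DESeq2 called the same 2 of 5, against 22.3% of 18931 genes. In a bulk sample, a change in the number of cells of a type and a change in RNA per cell cannot be told apart, which holds for every value here.

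*Timp1* (ENSMUSG00000001131) encodes the inducible inhibitor that binds the precursor of the gelatinase MMP9 (*Mmp9*). It lies at chrX:20870166-20874735 on the plus strand of GRCm38/mm10, inside the synapsin gene *Syn1*, which runs on the opposite strand and shares no exon base with it. The 100 bases before its start site and a stretch of 30 bases within its first exon, from RefSeq (GRCm38.p6), are shown because the gene had the largest fold change of the family. Capitals mark the letters AGGAAG (an ETS-type motif), GGGCGG (a GC box, here read as CCGCCC on the other strand) and TGAGTAA (an AP-1 variant).
*Timp1* chrX:20870066-20870165 (+): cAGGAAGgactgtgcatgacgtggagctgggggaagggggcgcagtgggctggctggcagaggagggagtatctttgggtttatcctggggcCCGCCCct
*Timp1* chrX:20870184-20870213 (+): tgggtggaTGAGTAAtgcgtccAGGAAGcc

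The 8 control libraries held 7.12 to 53.5 CPM of *Timp1* with a median of 29.0, and the 12 libraries labelled knockout held 33.6 to 122 CPM with a median of 89.5. Every knockout library lay above the control median, 10 of 12 lay above the highest control, and 7 of 8 controls lay below the lowest knockout library, so that the groups overlapped only through control replicate 5 at 53.5 CPM and knockout replicates 9 and 12 at 50.1 and 33.6 CPM. Means were 29.5 CPM ± 12.8 (SD, n = 8) and 84.6 CPM ± 24.4 (SD, n = 12). The log2 fold change was 1.52 (SE 0.26, 95% interval 0.97 to 2.06, edgeR quasi-likelihood test with Benjamini-Hochberg adjusted p = 0.00128). *Timp1* ranked 106 of 15984 genes by p-value and 209 among the 1918 genes called higher by fold change. Leaving out any one library left the call, with log2 fold changes between 1.38 (without control replicate 8) and 1.70 (without control replicate 5).

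*Timp2* (ENSMUSG00000017466) encodes the constitutive inhibitor that also forms the complex with the membrane enzyme MMP14 through which MMP2 is activated. It spans 54672 bases at chr11:118301069-118355740 on the minus strand, and the small gene *Cep295nl* lies within it on the same strand without sharing an exon base. Its 300-base promoter window was rich in CpG, with 25 such pairs and 68.7% G or C, against 8 pairs and 55.0% for *Timp1* and a median of 7 pairs and 52.7% over 32851 windows. The start site used for this window was base 118355411, so the window lies inside the annotated span given above. The stretch around its GC box is shown with GGGCGG in capitals, letters that the *Timp1* window also holds.
*Timp2* chr11:118355434-118355463 (−): gttctggggagggctGGGCGGcgcggcgcg

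*Timp2* levels ran from 167 to 575 CPM in control with a median of 377, and from 424 to 978 CPM in the libraries labelled knockout with a median of 713. All 12 knockout libraries lay above the control median and 9 above the highest control, while 5 of 8 controls lay below the lowest knockout library. The means were 380.3 CPM ± 128 (SD, n = 8) and 683 CPM ± 148 (SD, n = 12), with a difference of 0.84 on the log2 scale (95% interval 0.45 to 1.24, SE 0.19, edgeR adjusted p = 0.00437). Both *Timp1* and *Timp2* were lowest in control replicate 8, highest among controls in replicate 5, lowest among knockout libraries in replicate 12 and highest there in replicate 4. Leaving out single libraries gave 0.75 (without control replicate 8) to 0.96 (without control replicate 5) for *Timp2*, and each fit kept it past the threshold.

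*Timp3* (ENSMUSG00000020044) encodes the inhibitor that binds to the matrix itself and that blocks ADAM17 and the aggrecanases ADAMTS4 and ADAMTS5. It lies at chr10:86300372-86349506 on the plus strand inside *Syn3*, and 21.3% of its exon bases are shared with exons of that gene on the opposite strand. *Syn3* held at most 47 counts in any library. The start site used for its window was base 86300412, which lies inside the annotated span given above. The GC box before that start site is in capitals.
*Timp3* chr10:86300385-86300414 (+): tccgggccggctCCGCCCtgtcgccccgcg

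Control libraries held 73.4 to 252 CPM of *Timp3* with a median of 146, and those labelled knockout held 28.8 to 276 CPM with a median of 151. The groups overlapped over most of their range, with 6 of 12 knockout libraries above the control median, 2 above the highest control and 2 below the lowest. The difference of 0.10 on the log2 scale did not pass (edgeR adjusted p = 0.857, SE 0.33), and its 95% interval of 0.671-fold to 1.71-fold includes both a decrease and an increase. *Timp3* had the lowest knockout library of its own, replicate 4 at 28.8 CPM, in the same library where *Timp1* and *Timp2* were highest. Without control replicate 8 its difference was 0.05 on the log2 scale.

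*Timp4* (ENSMUSG00000030317) encodes a family member with a more restricted tissue pattern, known from heart and fat. It lies at chr6:115241892-115252205 on the minus strand inside *Syn2*, with which it shares 1.53% of its exon bases. Its promoter window held only 2 CpG pairs and none of the GC boxes found in the other 4 members. The 100 bases before the start site are shown because they contain none of the letters searched.
*Timp4* chr6:115252206-115252305 (−): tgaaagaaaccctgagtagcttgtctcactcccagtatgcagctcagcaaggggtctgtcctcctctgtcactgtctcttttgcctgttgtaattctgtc

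*Timp4* ranged from 16.5 to 55.4 CPM in control with a median of 31.4, and from 5.49 to 47.2 CPM in the libraries labelled knockout with a median of 15.9. Here 10 of 12 knockout libraries lay below the control median and 6 below the lowest control, although knockout replicate 5 reached 47.2 CPM. The means were 33.1 CPM ± 13.7 (SD, n = 8) and 19.9 CPM ± 12.5 (SD, n = 12), and the log2 fold change of −0.73 (SE 0.33, 95% interval −1.42 to −0.04) had an unadjusted p of 0.0388 and an adjusted p of 0.114 in edgeR. *Timp4* passed in 1 of 20 omissions of a single library, without knockout replicate 5, where the value was −0.92 with an edgeR adjusted p of 0.0323. Without control replicate 8, the highest control at 55.4 CPM, it was −0.58 and did not pass (edgeR adjusted p = 0.257). Skeletal muscle markers, which are abundant in the tissue, moved in the same direction, with a summed level of 40291 to 181536 CPM in control and 29793 to 81276 CPM in knockout. Of these 9 markers 5 were called lower, where 11% of all genes tested were called lower, and none was at 0. The list as a whole differed by −0.89 on the log2 scale and did not pass (exact permutation adjusted p = 0.0841). With this list as a covariate *Timp4* was at −0.43 (edgeR adjusted p = 0.450), and with the osteoblast and osteocyte list at −0.24 (edgeR adjusted p = 0.767).

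*Reck* (ENSMUSG00000028476) lies at chr4:43875530-43944806 on the plus strand, a span of 69277 bases. Its promoter window was the richest of the family in G and C, at 69.3%, and holds 3 GC boxes, of which the last reaches across the start site. The 100 bases before the start site are shown with the letters of the other 2 GC boxes and of a CCAAT box in capitals.
*Reck* chr4:43875430-43875529 (+): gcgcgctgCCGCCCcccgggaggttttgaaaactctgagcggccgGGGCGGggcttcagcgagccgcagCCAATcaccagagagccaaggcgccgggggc

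*Reck* was at 8.35 to 24.2 CPM in control with a median of 19.3, and at 11.6 to 36.8 CPM in the libraries labelled knockout with a median of 24.6. Of the 12 knockout libraries, 9 lay above the control median and 7 above the highest control. Means of 17.2 CPM ± 6.17 (SD, n = 8) and 24.1 CPM ± 7.31 (SD, n = 12) gave a log2 fold change of 0.49 (SE 0.22, 95% interval 0.03 to 0.95), with an unadjusted p of 0.0382 and an adjusted p of 0.113 in edgeR. It stayed short of the threshold with each library left out in turn, at 0.40 (without control replicate 8) to 0.59 (without control replicate 2). With the skeletal muscle list as a covariate it was at 0.18 (edgeR adjusted p = 0.627). With the osteoclast list *Reck* was at −0.28 (edgeR adjusted p = 0.862), and with the osteoblast and osteocyte list at −0.14 (edgeR adjusted p = 0.657).

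**Figure D1:**
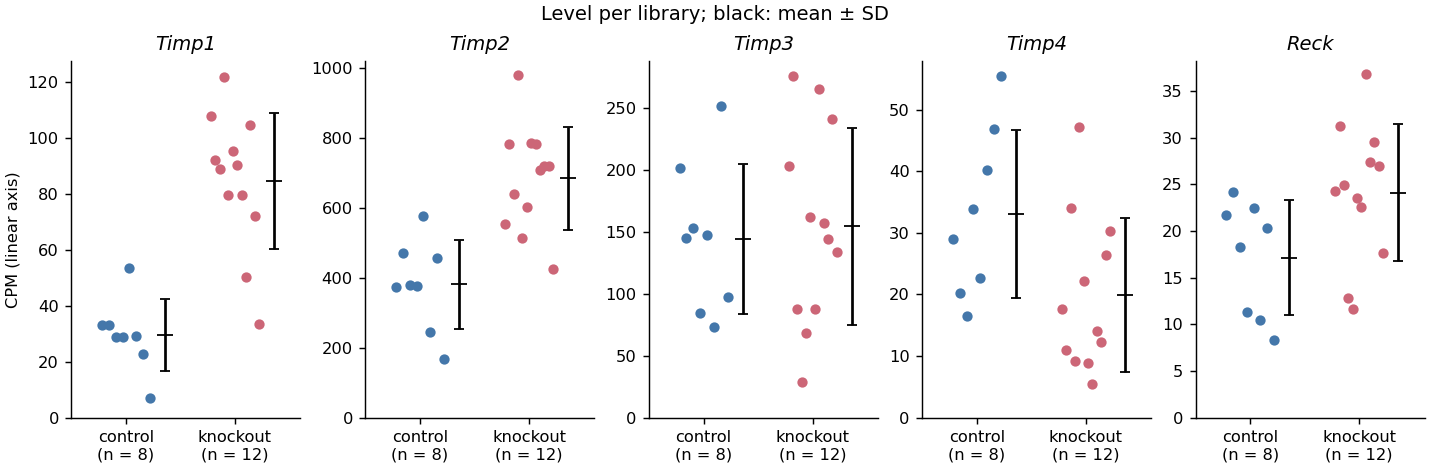
Level of each gene in CPM (linear axes starting at 0) in every library, with 8 control libraries (blue) and 12 labelled knockout (red), and the mean ± SD in black beside each group. *Timp1* and *Timp2* separate most of the libraries, with 10 and 9 of 12 knockout libraries above the highest control, while *Timp3* overlaps over most of its range.

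The letters of several motifs were searched on both strands of each window from 250 bases before to 50 bases after the start site. TGAGTAA occurred once, in *Timp1*, at positions 27 to 33 from the start, and is found in 2.68% of all windows. AGGAAG was found in *Timp1* at 3 places and once each in *Timp3* and *Timp4*, and occurs in 35.4% of windows. GGGCGG was found in *Timp1*, *Timp2*, *Timp3* and *Reck* (35.7% of windows), and CCAAT in *Timp1*, *Timp2* and *Reck* (37.4%). TGACTCA, the standard AP-1 letters (5.20%), TTCNNNGAA, a STAT-type motif (8.30%), and TATAAA (13.6%) were found in none of the 5 windows, which says only that these letters are not in those 300 bases.

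Levels were compared between genes per kilobase of exon (CPM per kb), since longer transcripts collect more reads. In control, *Timp2* led with 97.6 CPM per kb ± 32.9 (SD, n = 8), followed by *Timp1* with 33.2 ± 14.4, *Timp3* with 17.7 ± 7.45, *Timp4* with 5.62 ± 2.32 and *Reck* with 3.59 ± 1.29. *Timp2* was above *Timp1* in 8 of 8 control libraries and *Timp3* above *Timp4* in 8 of 8, whereas the neighbours *Timp1* and *Timp3* kept this order in 6 of 8 and *Timp4* and *Reck* in 5 of 8. In the libraries labelled knockout, *Timp2* stood at 175 CPM per kb ± 38.0 (SD, n = 12), *Timp1* at 95.3 ± 27.4, *Timp3* at 19.01 ± 9.78, *Reck* at 5.05 ± 1.53 and *Timp4* at 3.38 ± 2.12. *Timp1* now lay above *Timp3* in 12 of 12 libraries with separate ranges, and *Reck* lay above *Timp4* in 9 of 12. The place of *Timp3* depends on the length used, since with the longest transcript in place of all exons it had 30.6 CPM per kb in control, close to *Timp1*, and 32.8 in knockout. The separate ranges in knockout hold for the length of all exons, where the lowest *Timp1* value was 37.8 and the highest *Timp3* value 33.9 CPM per kb. With the longest transcript the knockout ranges of *Timp1* and *Timp3* overlap.

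The sum of the 4 TIMP genes averaged 154 CPM per kb ± 47.5 (SD, n = 8) among controls and reached 293 CPM per kb ± 56.0 (SD, n = 12) in knockout, and 11 of 12 knockout libraries lay above the highest control. Within this sum, *Timp2* kept the largest share, at 62.7% ± 3.96 and 59.9% ± 5.64. The share of *Timp1* was 21.02% ± 5.96 in control and 32.1% ± 6.34 in knockout, where 8 of 12 libraries lay above the highest control. *Timp3* accounted for 11.8% ± 4.09 and 6.66% ± 3.16, and *Timp4* for 4.49% ± 3.77 and 1.30% ± 1.03, with all 12 knockout libraries below the control median for both. Shares within a library do not depend on the scaling between libraries, and as parts of one sum they are not independent of each other. They do depend on the length used. With the longest transcript *Timp3* had 30.6 CPM per kb in control and 32.8 in knockout, and shares were not computed with that length.

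**Figure D2:**
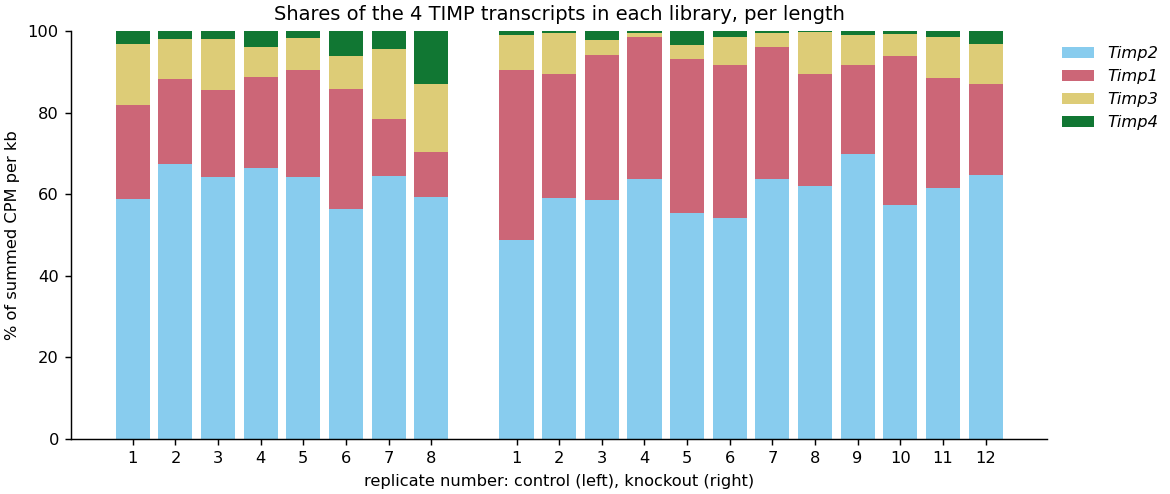
Stacked bars of the share (%) of each TIMP gene in the summed CPM per kb (length of all exons) of the 4 genes, 1 bar per library, control on the left and the libraries labelled knockout on the right by replicate number. *Timp2* is the largest share in every library, and the *Timp1* share averages 21.02% on the left and 32.1% on the right.

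Whether members changed by different amounts was tested on the log2 ratio of 2 members within each library, with exact two-sided permutation p-values from all 125970 ways of assigning libraries to groups, adjusted over 10 pairs. *Timp1* rose relative to each of the other 4, by 0.71 against *Timp2*, 1.63 against *Timp3*, 2.49 against *Timp4* and 1.10 against *Reck* on the log2 scale (exact permutation adjusted p = 0.00626, 0.00626, 0.00333 and 0.00626). *Timp2* rose relative to *Timp4* by 1.78 (exact permutation adjusted p = 0.00626) and relative to *Timp3* by 0.92 (exact permutation adjusted p = 0.0256), the latter lost without control replicate 8 (adjusted p = 0.0597 in the same exact test). The ratio *Timp4*/*Reck* fell by 1.39 (exact permutation adjusted p = 0.0272), with values of −0.26 to 2.72 in control and −2.72 to 2.01 in knockout, and was lost without control replicate 6 or 8. *Timp2*/*Reck* at 0.39 and *Timp3*/*Reck* at −0.53 passed narrowly (exact permutation adjusted p = 0.0437 and 0.0403) and were lost in 12 and 10 of 20 omissions of a single library. *Timp3*/*Timp4* at 0.86 did not pass (exact permutation adjusted p = 0.146).

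The enzymes that these proteins inhibit were described by lists. Among MMP genes, 7 of 14 tested (of 23 listed) rose and none fell, which is 50% where 12.0% of all genes tested were called higher, and the median log2 fold change was 1.16 against −0.02 over all genes. The 2 gelatinase genes were among them, *Mmp2* at 1.17 (SE 0.23, edgeR adjusted p = 0.00215) and *Mmp9* at 2.82 (SE 0.57, edgeR adjusted p = 0.00258). *Mmp14*, which encodes a membrane-anchored collagenase, had a mean of 125 CPM ± 58.2 (SD) over the 8 controls and of 429 CPM ± 142 (SD) over the 12 libraries labelled knockout, a rise of 1.78 in log2 units with an SE of 0.29 (edgeR adjusted p = 0.00115). The collagenase gene *Mmp13* and *Mmp16*, *Mmp19* and *Mmp23* also rose, at 1.16 to 2.62. Among ADAM and ADAMTS genes 5 of 14 tested rose (35.7%, against 12.0% called higher and 23.0% called in either direction over all genes) and none fell, with a median of 0.42. They were *Adam8* at 0.81, the meltrin gene *Adam12* at 2.01, *Adam15* at 0.38, the aggrecanase *Adamts4* at 2.06 and *Adamts9* at 1.23. The sheddase *Adam17* (0.12, edgeR adjusted p = 0.381) and the aggrecanase *Adamts5* (0.46, edgeR adjusted p = 0.127) did not pass. *Adamts8* went the other way at −0.72 and narrowly did not pass (edgeR adjusted p = 0.0559), with all 12 knockout libraries below the control median.

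Each enzyme was then set against the inhibitor it is known to pair with, as a log2 ratio within each library, with 8 pairs tested by the same exact permutation test. *Mmp14*/*Reck* ran from 2.28 to 3.32 in control and from 3.29 to 4.82 in the libraries labelled knockout, and 11 of 12 knockout libraries lay above the highest control (difference 1.34, exact permutation adjusted p = 0.000254). *Mmp14*/*Timp2* rose by 0.95 (exact permutation adjusted p = 0.00148) and *Mmp2*/*Timp2* by 0.37 (exact permutation adjusted p = 0.00203), each with 8 of 12 knockout libraries above the highest control. In these 3 pairs the enzyme transcript increased relative to that of the inhibitor.

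For *Timp3*, the ratio of *Adamts4* ran from −6.73 to −4.93 in control and from −5.79 to −1.14 in the libraries labelled knockout, a difference of 2.04 (exact permutation adjusted p = 0.00114). *Adamts5*/*Timp3* (0.57, exact permutation adjusted p = 0.181) and *Adam17*/*Timp3* (0.15, exact permutation adjusted p = 0.734) did not pass. *Mmp9*/*Timp1* rose by 1.24 (exact permutation adjusted p = 0.0321), and was lost in 6 of 20 omissions of a single library. *Mmp13*/*Timp1* differed by 0.79, with an exact permutation adjusted p of 0.163. These are ratios of transcripts, and neither the secreted protein nor enzyme activity was measured.

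**Figure D3:**
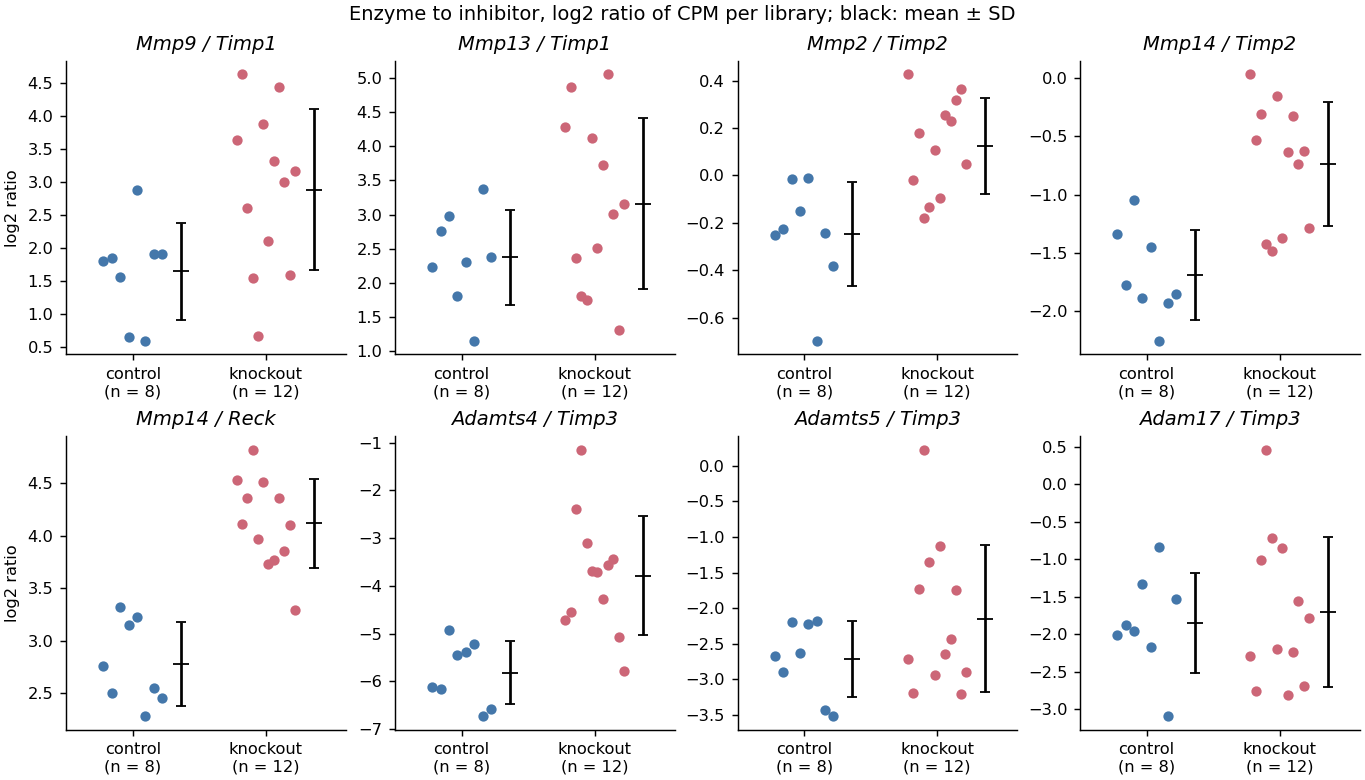
Log2 ratio of enzyme to inhibitor CPM in each library for the 8 pairs, control (blue, n = 8) and knockout (red, n = 12), with mean ± SD in black and axes that differ between panels. *Mmp14*/*Reck* separates the groups best, with 11 of 12 knockout libraries above the highest control, while *Adam17*/*Timp3* overlaps.

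Proteins that bind or clear the inhibitors were also listed. Of 8 tested partners 4 rose and none fell, with 12.0% of all genes called higher and a median of 0.32 in the list. They were *Cd63*, a tetraspanin that serves as a receptor for TIMP1, at 0.83 (SE 0.14, edgeR adjusted p = 0.00123), *Lrp1*, which takes up TIMP complexes from the matrix, at 0.74 (edgeR adjusted p = 0.0158), the integrin gene *Itgb1* at 0.34 (edgeR adjusted p = 0.0101), and *Adgra2*, a receptor that acts with RECK in Wnt signalling, at 0.57 (edgeR adjusted p = 0.0264). The endothelial receptor gene *Kdr* at −0.34 and the TIMP3 ligand *Efemp1* at −0.25 did not pass. Other protease inhibitors were not called, at 0 of 4 tested in edgeR, where 23.0% of all genes tested were called in either direction. Of these inhibitors 2 had an unadjusted p under 0.05 in edgeR (*Tfpi2* at 0.69 and *Spock1* at −1.40), and *Spock1* was called by DESeq2 (adjusted p = 0.0373). None of the 4 tested genes that overlap a member, *Syn1*, *Syn2*, *Syn3* and *Cep295nl*, was called in edgeR or DESeq2, against the same 23.0%. Of them 1 had an unadjusted p under 0.05 in edgeR (*Syn2*, −1.30). *Gm17482*, which spans *Timp4*, and *Gm27265*, which lies within *Reck*, held 0 counts in every library and were not tested.

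Among 18 tested genes of factors known to act on TIMP transcription, 9 rose and none fell, again against 12.0% called higher over all genes, and the median log2 fold change was 0.67. Of the AP-1 genes, *Fos* at 1.28, *Fosl2* at 1.11, *Junb* at 0.80 and *Jund* at 0.61 rose, and *Fosb* at 0.87, *Fosl1* at 0.02 and *Jun* at −0.08 did not pass. *Stat3*, the transcription factor of the interleukin 6 family of cytokines, lay at 91.5 to 109 CPM in control and rose to 116 to 167 CPM (log2 fold change 0.40, SE 0.07, edgeR adjusted p = 0.00145). Its groups did not overlap, which holds for 0.3% of all genes tested. *Lif*, a cytokine of that family, rose by 1.85, its relative's receptor *Osmr* by 0.51, *Tgfb1* by 1.06 and *Runx1* by 0.73, while *Il11* at 0.98, *Il6ra* at −0.15, *Il6st* at 0.07, *Runx2* at 0.94, *Ets1* at 0.10 and *Ets2* at −0.35 did not pass.

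Marker lists of several other cells were higher in the libraries labelled knockout, as were *Timp1* and *Timp2*. The counts called higher below stand against 12.0% of all genes tested called higher. The 9 osteoclast markers summed to 156 to 1090 CPM in control and 539 to 5807 CPM in the libraries labelled knockout, with 9 of 9 called higher, a log2 difference of 2.31 (exact permutation adjusted p = 0.000953) and no marker at 0. The 10 osteoblast and osteocyte markers summed to 1300 to 12288 CPM in control and 4013 to 38795 CPM in knockout, with 6 of 10 called higher (log2 difference 1.55, exact permutation adjusted p = 0.0263). Macrophage markers, with 5 of 6 called higher, summed to 36.8 to 179 CPM and 119 to 469 CPM, and fibroblast markers, with 3 of 7 called higher, to 528 to 2305 CPM and 1608 to 3094 CPM. Mast cell markers, with 4 of 5 tested called higher, summed to 1.91 to 19.7 CPM in control and 5.33 to 184 CPM in knockout (log2 difference 2.06, exact permutation adjusted p = 0.00965). With the osteoclast list as a covariate, *Timp1* was at 1.01 (edgeR adjusted p = 0.584) and *Timp2* at 0.48 (edgeR adjusted p = 0.675), and no gene of 15984 was called, with 1266 at an unadjusted p under 0.05. With the osteoblast and osteocyte list, *Timp1* remained called at 1.31 and *Timp2* did not (0.61, edgeR adjusted p = 0.0830). Both lists differ between the groups themselves, so a covariate also takes up part of the group difference, and the part of these cells in the *Timp1* and *Timp2* values was not tested.

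**Figure D4:**
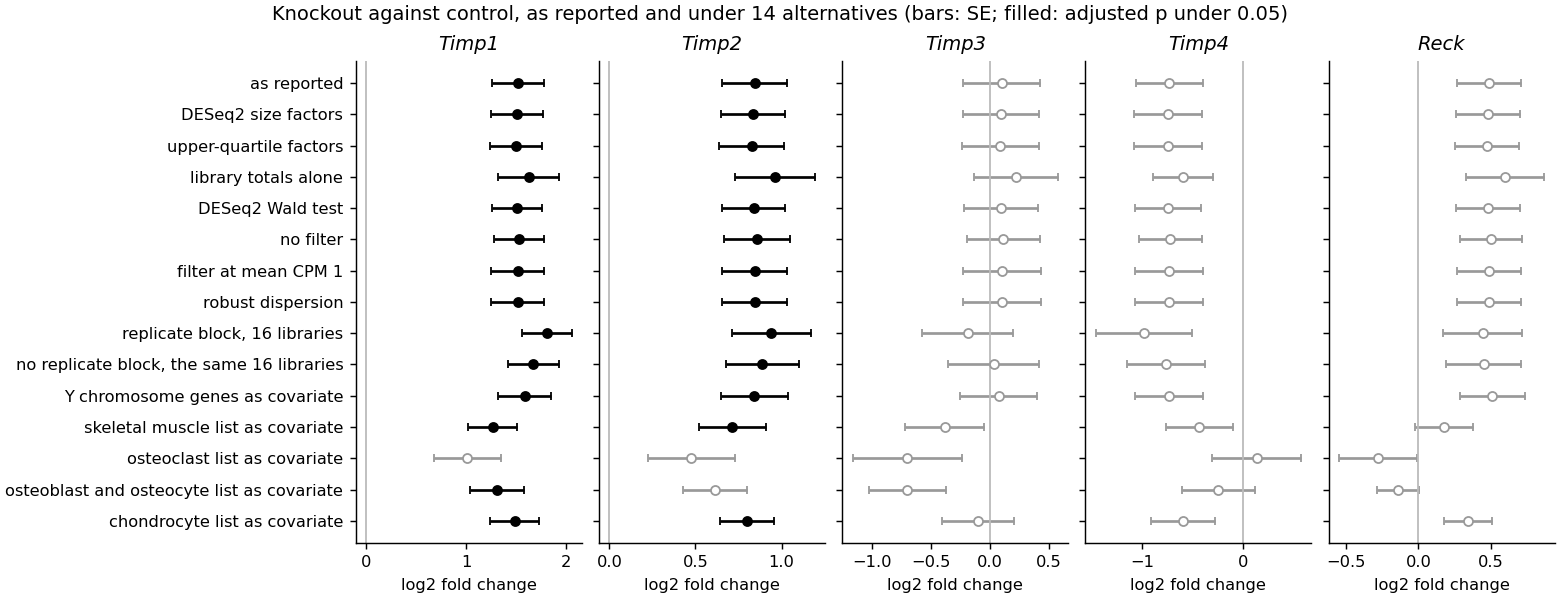
Log2 fold change (± SE) of each gene, knockout against control, as reported and under 14 alternatives, with filled symbols where the edgeR or DESeq2 adjusted p is under 0.05. *Timp1* is filled in 13 and *Timp2* in 12 of the 14 alternatives, and *Timp3*, *Timp4* and *Reck* are open throughout.

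Within each group, each member was correlated with the mean of the chondrocyte, osteoblast and osteocyte, osteoclast and muscle lists, 40 relations in all. Among controls *Timp2* followed the osteoblast and osteocyte list with a Pearson r of 0.99 (exact permutation p = 0.000496, adjusted 0.0198, n = 8) and a Spearman rho of 0.90 (exact permutation p = 0.00456, adjusted 0.0579). Omitting the 2 libraries with the most extreme list values left an r of 0.98. In the 12 libraries labelled knockout the same relation had an r of 0.05 and a rho of −0.03 (permutation p = 0.844 and 0.918), and the difference between the groups was not tested. *Timp2* in control also had an r of 0.77 with the osteoclast list (0.99 without the 2 farthest libraries) and of 0.92 with the chondrocyte list (0.10 without them). Neither passed (exact permutation adjusted p = 0.0813 for both). In the libraries labelled knockout the osteoclast list had an r of 0.18 with *Timp2* and of 0.27 with *Timp1*. These did not pass either (permutation adjusted p = 0.663 and 0.479).

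*Reck* followed the osteoblast and osteocyte list in both groups. In control r was 0.88 and rho 0.88 (exact permutation p = 0.00188 and 0.00724, n = 8), and r was 0.83 without the 2 farthest libraries. In the libraries labelled knockout r was 0.87 and rho 0.75 (permutation p = 0.00160 and 0.00706), and r was 0.54 without the 2 farthest, so that the strength there rests partly on them. Both r passed after adjustment (adjusted permutation p = 0.0251), and none of the 40 rho did, the lowest adjusted value being 0.0579. *Reck* also varied with the other lists, at an r in control and knockout of 0.82 and 0.61 (osteoclast), 0.76 and 0.74 (chondrocyte) and −0.72 and −0.59 (muscle). None of these passed (lowest permutation adjusted p = 0.0583). *Timp1* had an r of 0.86 with the osteoblast and osteocyte list in control (exact permutation p = 0.0218, adjusted 0.0873, n = 8), which was −0.15 without the 2 farthest libraries, and an r of −0.07 in knockout.

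**Figure D5:**
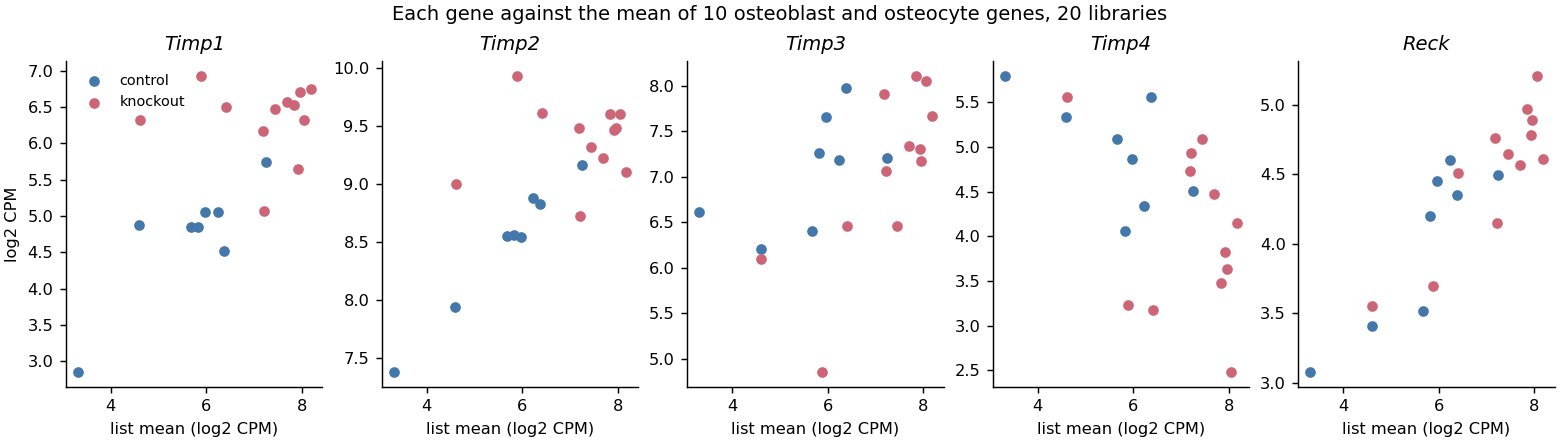
Level of each gene (log2 CPM, vertical) against the mean log2 CPM of 10 osteoblast and osteocyte genes (horizontal) in the 20 libraries, control in blue and knockout in red. *Timp2* controls lie along a line (r = 0.99, n = 8) and its knockout libraries do not (r = 0.05, n = 12), while *Reck* follows the list in both groups.

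After each gene was centred on its group means, *Timp1* and *Timp2* varied together across the 20 libraries (Pearson r = 0.74), as did *Timp3* and *Reck* (0.78) and *Timp2* and *Reck* (0.60). *Timp4* ran against *Timp2* (−0.62), *Reck* (−0.51) and *Timp1* (−0.43). These are descriptions over libraries that share tissue makeup and depth, with no test. By the same measure over 11137 genes, the genes most like *Timp1* were *Col8a1* (0.90), *Txndc5* (0.89) and *S1pr2* (0.88), and those most like *Timp2* were *Arhgef40* (0.95), *Lix1l* (0.95) and *Erf* (0.93). *Timp3* was nearest to *Zfp783* (0.93, annotated as a pseudogene, so that its reads are uncertain), *Ctnnb1* (0.86) and *Ptprz1* (0.86), *Timp4* to *Mrpl55* (0.86), *Pstk* (0.86) and *Pdhb* (0.84), and *Reck* to *Mpzl1* (0.93), *Rnd3* (0.92) and *Cdh11* (0.92).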

How the data were processed

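Condylar RNA of 20 mice was measured. The authors deposited raw counts per Ensembl gene, from paired-end Illumina reads mapped to mm10 and counted with featureCounts. The aligner, annotation release, strand setting and handling of multimapping reads are not given in the sources used here, so reads of genes overlapping a member are uncertain. Groups and replicate numbers come from the titles. GENCODE M21 gave symbols, coordinates and exon lengths for 54495 of 54532 genes (37 unmatched, 20340 without a count).

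Genes were kept by filterByExpr, scaled by TMM and tested with edgeR 4.0.16 (quasi-likelihood F-test, two-sided, Benjamini-Hochberg over 15984 genes, threshold 0.05) in R 4.3.3. DESeq2 1.42.0, the tool of the study, was an alternative. CPM uses TMM-scaled totals, and log2 CPM a prior count of 2. Single values were compared by exact permutation of libraries. Correlations used 40320 pairings (control) or 100000 resamples (knockout), two-sided. Replicates are separate animals. No 2 libraries held the same counts (smallest chi-square over 190 pairs 32.9 per degree of freedom). A count of 3 equals 0.0964 to 0.246 CPM, which covers counting error only. Genes named are the members, *Loxl2*, listed genes, overlapping genes and the 3 most like each member above a mean of 5 CPM. Members and lists were chosen with earlier results of these data known. The edgeR procedure was tested on simulated data. Other alternatives were scaling, filters, dispersion, a replicate block, covariates, exon length and omission of each library.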

Additional observations from a re-analysis of the deposited data

Results flagged for a closer look

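*Timp1* in control replicate 8 was far from the other controls, at 2.85 on the log2 CPM scale, since its gap to the next library was 0.575 of the range of the 8 controls, above the 95% critical value of Dixon's test for 8 samples. Of 23 values examined in this way 1 exceeded its limit, and chance gives about 1 in 20. The same library had the lowest chondrocyte marker sum (101 CPM) and the highest muscle marker sum (181536 CPM) of the controls. Without it *Timp1* was at 1.38 on the log2 fold change scale and remained called.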

How the results depend on the processing

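*Timp1* was called in 13 of 14 alternatives (1.27 to 1.81) and *Timp2* in 12 of 14. Calls were lost with the osteoclast list as covariate (*Timp1* 1.01, *Timp2* 0.48) and the osteoblast and osteocyte list (*Timp2* 0.61). The sign turned for *Timp3* with the replicate block (−0.19) and the muscle (−0.39), osteoclast (−0.70), osteoblast and osteocyte (−0.70) and chondrocyte lists (−0.10), for *Timp4* with the osteoclast list (0.13), and for *Reck* with the osteoclast (−0.28) and osteoblast and osteocyte lists (−0.14), and none of these was called. The cause was not tested. *Timp3* per kb moved to 30.6 and 32.8 with the longest transcript. Genes called over the whole table, 3673 as reported, were 1786 with the block, 1166 with the muscle list, 0 with the osteoclast list and 371 with the osteoblast and osteocyte list. List counts became 0 and 4 (MMP), 0 and 1 (ADAM), 0 and 1 (partners) and 0 and 5 (regulators) with the osteoclast and the osteoblast and osteocyte lists. With the muscle list they were 3 (ADAM), 2 (partners), 1 (other inhibitors) and 1 (overlapping genes), and other inhibitors also reached 1 with DESeq2 and with the chondrocyte list. With library totals alone the median of all genes was 0.12 and 72.0% of calls were higher, against 52.2% as reported, and *Timp1* and *Timp2* stayed called.

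The labels number the replicates 1 to 8 in control and 1 to 12 in knockout, so the numbers 1 to 8 occur in both groups. Deviations of same-numbered libraries correlated at −0.36 to 0.17, and 0 of 8 pairs correlated best with their own number. These values gave no sign that the numbers pair the animals. They cannot exclude it, and the labels do not state it. In the 16 libraries with the replicate block *Timp1* was at 1.81 and *Timp2* at 0.94, both called, partners called were 2, and 3280 genes were called in the same libraries without the block.

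Omitting each library in turn gave 1.38 to 1.70 for *Timp1*, 0.75 to 0.96 for *Timp2*, −0.01 to 0.26 for *Timp3* (−0.0070 without knockout replicate 2), −0.92 to −0.58 for *Timp4* and 0.40 to 0.59 for *Reck*. Genes called ran from 2551 to 4181, MMP genes 7 to 8, ADAM genes 4 to 7, partners 3 to 4, regulators 9 to 10, and other inhibitors and overlapping genes 0 to 1 each. Ratios ran from 1.08 to 1.44 (*Mmp9*/*Timp1*), 0.61 to 0.95 (*Mmp13*/*Timp1*), 0.31 to 0.41 (*Mmp2*/*Timp2*), 0.87 to 1.05 (*Mmp14*/*Timp2*), 1.27 to 1.42 (*Mmp14*/*Reck*), 1.80 to 2.22 (*Adamts4*/*Timp3*), 0.36 to 0.67 (*Adamts5*/*Timp3*) and −0.05 to 0.29 (*Adam17*/*Timp3*, below 0 in 2 of 20, −0.030 and −0.049). Between members they ran from 0.60 to 0.81 (*Timp1*/*Timp2*), 1.38 to 1.77 (*Timp1*/*Timp3*), 2.10 to 2.70 (*Timp1*/*Timp4*), 0.96 to 1.20 (*Timp1*/*Reck*), 0.67 to 1.02 (*Timp2*/*Timp3*), 1.5 to 1.95 (*Timp2*/*Timp4*), 0.26 to 0.47 (*Timp2*/*Reck*), 0.62 to 1.08 (*Timp3*/*Timp4*), −0.60 to −0.41 (*Timp3*/*Reck*) and −1.62 to −1.14 (*Timp4*/*Reck*). A prior count of 0.5 changed no call among these ratios. Length without exon bases shared with other genes, an alternative chosen after seeing the data, gave *Timp3* 22.5 and 24.1 CPM per kb.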
